A study of Homo sapiens with 12 samples.

Results

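Many exons can end at more than 1 donor (5') splice site, and the choice among them sets how much sequence is added to the exon before the next intron begins. The regions described here are the distant alternative 5' sites, which lengthen an exon by more than 12 nt past the first (shortest) site of the same event. They were the rows of the deposited splicing table marked as alternative 5' sites with an extension over 12 nt and at least 20 reads for and against the site in each of the 12 samples. There were 22849 such sites, in 16105 events of 6721 genes, out of 313032 splicing events of all kinds with that many reads. Extensions ran from 13 to 499 nt.

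All samples were poly(A) RNA of MEC1, an established human B cell line from chronic lymphocytic leukemia, sequenced as stranded libraries. The 4 groups of 3 samples were K700E cells in 75 nM H3B-8800, K700E cells in DMSO, WT cells in 75 nM H3B-8800 and WT cells in DMSO, each for 6 h. The K700E samples carried the SF3B1 base changes labelled c.2098A>G and c.2106G>A, WT replicate 3 carried c.2106G>A alone, and WT replicates 1 and 2 were labelled WT with no base change. A culture code was shared by the H3B-8800 and DMSO samples of each replicate, whereas no culture was shared between genotypes, so a difference of K700E from WT cannot be told apart from a difference between the cultures of each genotype.

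A 5' splice site is first bound by the U1 particle, which pairs with the last bases of the exon and the first bases of the intron. The SF3B complex works at the other end of the intron, where SF3B1 and the U2 particle settle on the branch point ahead of the 3' splice site. H3B-8800 is a small molecule that binds SF3B, and SF3B1 K700E is a recurrent mutation of chronic lymphocytic leukemia known for opening cryptic 3' sites, so 5' sites are not the place where either acts directly.

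Of the 22849 sites, 12690 averaged under 1% use over the 12 samples, 4923 of these had no read for the site in any sample, and 4602 averaged over 99%. The remaining 5557 sites, in 4476 events of 3339 genes, entered the test. A site can enter through the group where it is high, and 532 tested sites were under 1% in both DMSO groups. Sites of 1 event share their reads, so sites are not independent of each other. The median tested site had 109 to 130 reads in the H3B-8800 samples and 170 to 205 reads in the DMSO samples. With 109 reads, a use near 50% has an exact 95% binomial interval of 39.8 to 59.3%, and this covers counting error only. As a check of the line, an event with that many reads in all samples was found for all 12 B cell markers, for 0 of 12 myeloid markers and for 1 of 12 markers on the T and NK list (TRAC).

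The bases around some of these sites show what is being chosen between. The following pairs come from events described below, 6 in which the site that gained use in H3B-8800 scored higher and 2, in DENR and RPL10A, in which it scored lower. Each line shows 10 exon bases and 10 intron bases, 5′ to 3′, from GENCODE v29 transcripts on GRCh38. Capitals mark the 9 bases that face U1, the last 3 of the exon and the first 6 of the intron.
EIF4A2 first site: tgtcatcGAGGTAAGAaacg
EIF4A2 site 36 nt downstream: ctttggaAAGGTGAGTgtgt
RABGGTA first site: gcccctcTTAGTGAGTcctg
RABGGTA site 84 nt downstream: tttgtgcCAGGTGGGCtcca
DBF4 first site: aaatccaAATGTAAGCcact
DBF4 site 92 nt downstream: tctgggaGGGGTAAGTgaaa
RPL41 first site: gagagccAAGGTGAGCggtt
RPL41 site 64 nt downstream: ggagacgAAGGCAAGTccgc
RPSA first site: tactggcCAGGTTTGTggaa
RPSA site 15 nt downstream: tggaacaGTGGTTAGTtttt
SLC25A14 first site: ctcacttCGTGTAAGTagga
SLC25A14 site 92 nt downstream: ttgataaCTGGTACGTatgg
DENR first site: tattgtgGAGGCAAGTgttg
DENR site 73 nt downstream: ttgacatTTGGTAAGCtttc
RPL10A first site: gcaccgtCAGGTTGGCaccg
RPL10A site 258 nt downstream: aacgctcCGGGTAAGGctcg

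The EIF4A2 pair lies at chr3:186784468-186784487 and chr3:186784504-186784523 on the plus strand, and the RABGGTA pair at chr14:24268901-24268920 and chr14:24268817-24268836 on the minus strand. The DBF4 pair lies at chr7:87878124-87878143 and chr7:87878216-87878235, the RPL41 pair at chr12:56116790-56116809 and chr12:56116854-56116873, the RPSA pair at chr3:39408715-39408734 and chr3:39408730-39408749, and the SLC25A14 pair at chrX:130364743-130364762 and chrX:130364835-130364854, all on the plus strand. The DENR pair lies at chr12:122753798-122753817 and chr12:122753871-122753890 and the RPL10A pair at chr6:35469018-35469037 and chr6:35469276-35469295, also on the plus strand. The RPL41 downstream site and the DENR first site open their introns with GC, and the other sites shown open theirs with GT. Each set of 9 bases was scored as the summed log2 ratio of its base frequencies at 6738 annotated 5' sites of coding transcripts to equal base frequencies, and the commonest base at each position, CAGGTAAGT, scored 11.6. Intron bases were at hand only where some transcript holds them in an exon, so the 6738 sites need not represent all annotated 5' sites. In EIF4A2 the downstream site scored 11.2 and the first site 9.71. The scores were 8.35 and 5.27 in RABGGTA, 9.18 and 6.72 in DBF4, and 7.48 and 6.48 in SLC25A14, in the same order. In RPL41 and RPSA, where the downstream site lost use in H3B-8800, it scored 6.17 against 9.95 and 5.71 against 6.19. In DENR and RPL10A the downstream site also lost use, yet it scored 6.96 against 5.81 and 9.19 against 5.18. Of the sites named below, 22 were called in H3B-8800 and have bases at the site and at the first site of the event. Only these 2 sites were compared, and the first site was counted as gaining wherever the named site fell. On that count the gaining site scored higher at 14, lower at 7 and equal at 1. Those with the lower score gaining include PIK3AP1, where the downstream site scored 4.1 and the first site 9.57. Among the 7, the RPSA (41 nt) and RPL7A (88 nt) sites fell together with their first sites in WT cells. There another site gained, with 55.4% in H3B-8800 and 8.69% in DMSO in RPSA, and 88.2% and 70.1% in RPL7A. In the 9 events of exactly 2 sites, the site that gained scored higher at 7 and lower at 2. The sites were named for their change, and in events with more than 2 sites others took part, as in RPL41, so the counts carry no test. Bases were at hand for 1761 of the 5557 tested sites (31.7%), which is too few to compare scores between groups of sites.

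In H3B-8800, distant 5' sites were used more far more often than they were used less. Calls needed an adjusted p under 0.05 (limma, Benjamini-Hochberg over all 109076 tested events) and a difference of at least 10 points, meaning percentage points of use. In K700E cells 274 of 5557 sites rose and 75 fell, and in WT cells 348 rose and 91 fell. These are 6.28% of the sites in K700E cells, against 31.3% of all tested events, and 7.90% in WT cells, against 32.0% of all tested events, so a distant 5' site was called less often than an event of any kind. By direction the share of all tested events was 14.3% higher and 17.0% lower in K700E cells, and 14.4% higher and 17.6% lower in WT cells, against 4.93% higher and 1.35% lower, and 6.26% higher and 1.64% lower, for distant 5' sites. The background is made largely of exons, of which 39.0% were called in K700E cells and 40.8% in WT cells, nearly all of them lower, and of introns, of which 31.9% and 32.3% were called, nearly all of them higher.

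Among alternative splice sites the distant 5' sites stood between the other kinds. Of the 1585 tested 5' sites that lengthen an exon by 1 to 12 nt, 26 rose and 24 fell in K700E cells (3.15% called), and 33 rose and 32 fell in WT cells (4.10% called). Of 5301 tested alternative 3' sites over 30 nt, 573 rose and 178 fell in K700E cells (14.2% called), and 492 rose and 136 fell in WT cells (11.8% called). Distant 5' sites shared the excess of rises with the far 3' sites, and close 5' sites had rises and falls in near equal number.

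The share of sites used more was low just past the limit of 12 nt and higher for longer extensions. From 13 to 30 nt, 2.04% of 1126 sites rose in K700E cells and 3.02% in WT cells. Above 100 and up to 200 nt, 6.69% of 1270 sites rose in K700E cells and 8.35% in WT cells. The 794 sites above 200 nt had 5.29% in K700E cells and 5.16% in WT cells. On either side of the limit, 3 of 217 sites of 13 to 15 nt rose and 3 fell in K700E cells, and 4 of 288 sites of 10 to 12 nt rose and 5 fell. In WT cells the counts were 7 risen and 4 fallen at 13 to 15 nt, and 7 risen and 8 fallen at 10 to 12 nt.

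**Figure D1:**
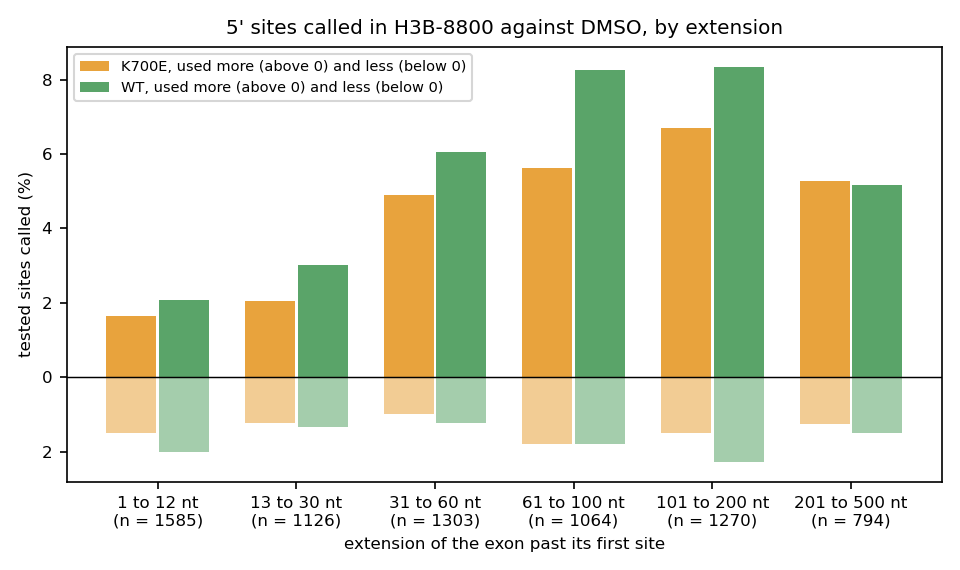
Share of tested 5' sites called in H3B-8800 against DMSO (y axis, percent), by the extension they add to the exon (x axis, with the number of sites n); full bars above 0 are sites used more and pale bars below 0 are sites used less, in K700E and in WT cells. The share used more is 2.04% in K700E and 3.02% in WT at 13 to 30 nt, and 6.69% and 8.35% in the bin that ends at 200 nt.

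What the choice among sites looked like before treatment went with the direction of change. Where the distant site was the minor one in WT cells in DMSO (under 50% use, 3594 sites), 240 rose and 19 fell in K700E cells, and 307 rose and 26 fell in WT cells. Where it held 50% or more (1963 sites), 34 rose and 56 fell in K700E cells, and 41 rose and 65 fell in WT cells. Since a level near 0 can hardly fall and a level near 100% can hardly rise, the minor site was also followed when it was the first one.

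For this, events with exactly 2 sites were used, and in each genotype the minor site was picked from the DMSO samples of the other genotype, so that no sample served both to pick a site and to measure it. The comparison was chosen after the values were seen and has no test. In K700E cells the mean use of the minor site, where it was the downstream one (1514 events), was 8.97% ± 0.0961 in H3B-8800 and 5.61% ± 0.109 in DMSO (SD, n = 3 each). Where the minor site was the first one (861 events), its mean use was 8.45% ± 0.105 in H3B-8800 and 8.67% ± 0.0891 in DMSO. In WT cells the downstream minor sites (1517 events) had 9.80% ± 0.466 in H3B-8800 and 5.74% ± 0.169 in DMSO, and the first minor sites (858 events) 8.61% ± 0.208 in H3B-8800 and 8.65% ± 0.162 in DMSO. The groups did not overlap for downstream minor sites in either genotype, while for first minor sites they overlapped in WT cells and did not in K700E cells. A site entered these events by its mean over all 12 samples, which holds for both classes alike.

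Averaged over all 5557 tested sites, the use was 37.7, 37.8 and 37.7% in the K700E samples in H3B-8800, against 36.2, 36.2 and 36.3% in DMSO. The WT samples had 37.7, 38.1 and 38.1% in H3B-8800, against 36.1, 36.2 and 36.3% in DMSO. Every sample in H3B-8800 was above every sample in DMSO, with a mean difference over the 6 pairs of 1.59 points (1.40 to 1.82 points, exact two-sided sign-flip test p = 0.0312, the smallest that 6 pairs can give). Within a genotype, 3 against 3 samples gave p = 0.10 in the exact permutation test in both, the smallest possible. Over all 22849 sites, with no filter on the level, the difference was 0.414 points, again higher in H3B-8800 in 6 of 6 pairs.

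Close 5' sites gave no such shift. Their mean use was 48.1% ± 0.0225 in K700E cells in H3B-8800 and 48.1% ± 0.0888 in DMSO, and 48.1% ± 0.217 in WT cells in H3B-8800 and 48.2% ± 0.0777 in DMSO (SD, n = 3 each). The pair differences ran from -0.293 to 0.0959 points (exact sign-flip p = 0.438). The difference itself, distant minus close sites, was higher in H3B-8800 by 1.64 points (1.34 to 1.96 points, 6 of 6 pairs, exact sign-flip p = 0.0312). Tested sites include some that passed the filter through their level in H3B-8800, and over all covered distant and close sites, with no filter on the level, the difference was 0.422 points, again in 6 of 6 pairs. Against alternative 3' sites over 30 nt the distant 5' sites gained less, by 0.905 points fewer (the pair differences ran from -1.21 to -0.61 points, 6 of 6 pairs, exact sign-flip p = 0.0312). Of 8 such measures, counting those of the next paragraph, 7 had an exact sign-flip p of 0.0312, which is 0.0357 after adjustment over the 8.

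The exons concerned became longer on average, were also skipped more, and had higher measured retention of the following intron. That intron was counted from 1 of the event's sites, so reads of a longer exon can add to its retention. Summed over the sites of an event, the mean extension past the first site was 41.02 nt ± 0.156 in K700E cells in H3B-8800 and 38.9 nt ± 0.0611 in DMSO, and 41.1 nt ± 0.284 in WT cells in H3B-8800 and 38.6 nt ± 0.233 in DMSO. The mean pair difference was 2.31 nt (exact sign-flip p = 0.0312). At the 3728 internal exons with a tested site, the mean share of reads that skip the exon was 14.2% ± 0.0851 in K700E cells in H3B-8800 and 7.06% ± 0.188 in DMSO, and 14.7% ± 0.453 in WT cells in H3B-8800 and 7.07% ± 0.0667 in DMSO (6 of 6 pairs, exact sign-flip p = 0.0312). Retention of the intron that follows, measured for 3671 of 4476 events (82.0%), averaged 16.1% ± 0.957 in K700E cells in H3B-8800 and 7.35% ± 0.151 in DMSO, and 16.3% ± 0.881 in WT cells in H3B-8800 and 6.93% ± 0.623 in DMSO (6 of 6 pairs, exact sign-flip p = 0.0312). The number of the 22849 sites used at 5% or more was 8178 ± 19.3 in K700E cells in H3B-8800 and 7689 ± 21.1 in DMSO, and 8269 ± 68.1 in WT cells in H3B-8800 and 7704 ± 23.5 in DMSO (exact sign-flip p = 0.0312). The H3B-8800 samples had fewer reads at these sites, and the part of depth in that number was not tested.

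**Figure D2:**
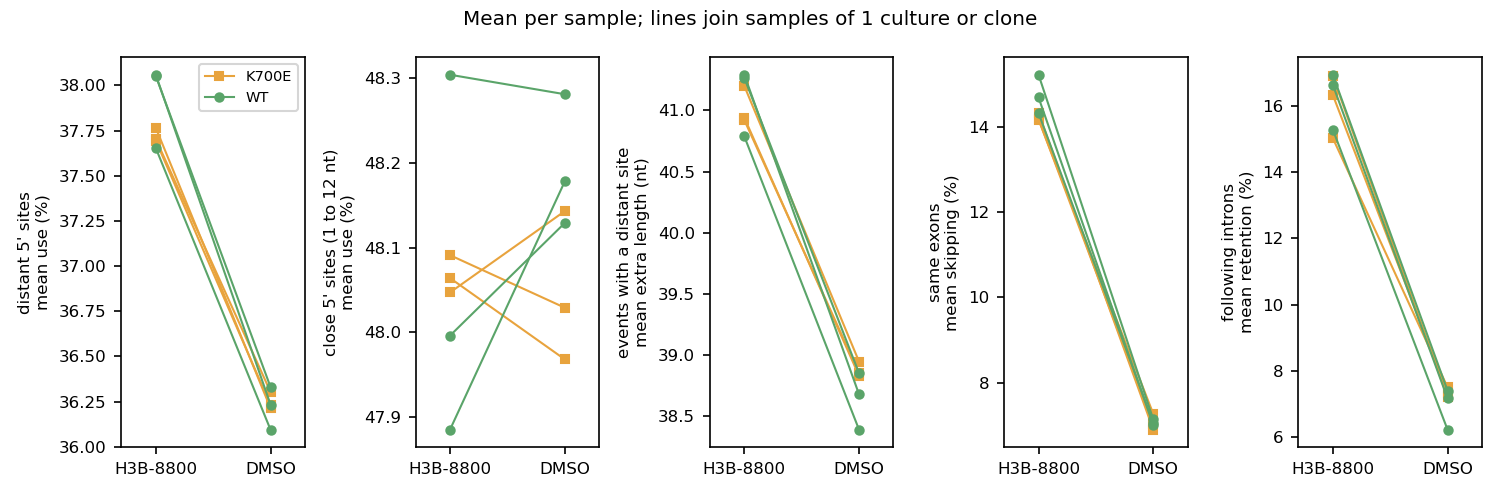
Means per sample over distant 5' sites (use, percent), close 5' sites (use, percent), events with a tested distant site (extension, nt), their internal exons (skipping, percent) and the introns that follow (retention, percent); points are samples, lines join H3B-8800 (left) and DMSO (right) samples of 1 culture code, and each y axis spans its own range and does not start at 0. Distant sites, extension, skipping and retention are higher in H3B-8800 in 6 of 6 pairs, and close sites in 3 of 6.

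Skipping and retention had higher medians in H3B-8800 at events with and without a called site. In WT cells the median retention of the following intron was 20.7% in H3B-8800 and 5.68% in DMSO at events with a site used more, and 7.27% in H3B-8800 and 2.45% in DMSO at events with no called site. The same medians in K700E cells were 21.6% in H3B-8800 and 6.60% in DMSO, and 7.59% in H3B-8800 and 2.69% in DMSO. Median skipping at internal exons was 2.41% in H3B-8800 and 0.242% in DMSO at K700E events with a site used more, and 2.74% in H3B-8800 and 0.192% in DMSO at the WT events. At events with no called site it was 2.65% in H3B-8800 and 0.33% in DMSO in K700E cells, and 2.76% in H3B-8800 and 0.342% in DMSO in WT cells. At 25 of the 274 sites that rose in K700E cells and 33 of the 348 in WT cells, at least 50% of the reads in H3B-8800 skipped the exon, so that the site's share describes the transcripts that kept it. The part of skipping and retention in the change of sites was not tested.

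The sites used more were mostly absent from annotated exon ends of coding transcripts. Of the 348 sites that rose in WT cells, 165 (47.4%) ended an exon of GENCODE v29 and 74 (21.3%) did so in a coding transcript, against 57.3% and 46.8% of the sites not called. Of the 274 that rose in K700E cells, 136 (49.6%) ended an annotated exon and 60 (21.9%) did so in a coding transcript, against 57.1% and 46.5% of the sites not called. The sites used less lay the other way, with 82.7% annotated in K700E cells and 80.2% in WT cells. The extension kept the reading frame (a multiple of 3) at 34.7% of the sites that rose in K700E cells and at 30.5% in WT cells, against 35.6% and 36% of the sites not called. The first site of the event ended in coding sequence for 86.5% of the sites that rose in K700E cells and 87.1% in WT cells, against 76.9% and 76.8% of those not called. These shares are descriptions of sites that were called for their change. Annotation also went with the level before treatment. In WT cells in DMSO the median use was 83.5% at tested annotated ends and 1.8% at the other tested sites. Most sites that rose were minor ones in DMSO, and the sites not called were not matched to them for level. The part of level in these shares was not tested.

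The median use of the 274 sites that rose in K700E cells was 28.5% in H3B-8800 and 8.45% in DMSO, and that of the 348 sites in WT cells 26.2% in H3B-8800 and 7.10% in DMSO. In WT cells 146 of them were under 5% in DMSO and 31 under 1%, and 40 crossed from under 50% in DMSO to 50% or more in H3B-8800. In K700E cells 95 were under 5% in DMSO and 15 under 1%, and 34 crossed 50%. The site most used in DMSO lay upstream of the rising site at 235 of 274 sites in K700E cells and at 296 of 348 in WT cells. Differences reached 47.2 points in K700E cells and 55.2 points in WT cells, with medians of 16 and 15.5 points.

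At each of the 10 largest rises in WT cells the downstream site averaged over 50% of its event in H3B-8800. The largest rises and falls were named only where treated and DMSO samples did not overlap, so that separation adds no support at them. In CDC16, which encodes a subunit of the anaphase-promoting complex, the site 166 nt downstream (chromosome 13, last exon base 114259564) was used at 51.1, 53.5 and 48.2% in K700E cells in H3B-8800, against 5.21, 4.96 and 5.97% in DMSO. The WT samples had 54.3, 63.4 and 59.8% in H3B-8800, against 3.8, 7.12 and 5.49% in DMSO. All 6 treated samples were far above the 6 DMSO samples, and the differences were 45.5 points in K700E cells (adjusted p = 1.73e-07, limma) and 53.7 points in WT cells (adjusted p = 6.71e-08). This site is not an annotated exon end, and its extension is not a multiple of 3. The CDC16 event had 523 reads on average in K700E cells in H3B-8800 and 617 in DMSO, and 619 in WT cells in H3B-8800 and 744 in DMSO.

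VIPAS39, whose protein works with VPS33B in vesicle sorting, had the largest rise in WT cells. Its site 93 nt downstream (chromosome 14, 77435166, minus strand) was used at 39.3, 39.2 and 33.8% in K700E cells in H3B-8800, against 2.58, 0 and 6.38% in DMSO. In WT cells it had 55.1, 64.5 and 57.5% in H3B-8800, against 3.71, 5.13 and 2.79% in DMSO. The groups did not overlap, and the differences were 34.4 points in K700E cells (adjusted p = 0.000149, limma) and 55.2 points in WT cells (adjusted p = 0.000107). The difference between the genotypes' effects was not called (adjusted p = 0.989).

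EIF4A2 encodes an RNA helicase of the translation initiation complex eIF4F. Its site 36 nt downstream, whose bases are shown above and which scored higher than the first site, was used at 46.6, 60.8 and 49.1% in K700E cells in H3B-8800, against 6.56, 11.5 and 9.42% in DMSO. In WT cells it had 55.8, 47.9 and 49.0% in H3B-8800, against 11.5, 7.20 and 6.85% in DMSO. Treated and DMSO samples did not overlap, and the differences were 43.0 points in K700E cells (adjusted p = 1.51e-06, limma) and 42.4 points in WT cells (adjusted p = 1.22e-06). The site is not an annotated exon end and keeps the frame. The event is deeply read, with 2356 reads on average in K700E cells in H3B-8800 and 2321 in DMSO, and 2580 in WT cells in H3B-8800 and 1955 in DMSO, and skipping of the exon in WT cells was 11.3% in H3B-8800 and 0.0347% in DMSO.

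RABGGTA, the alpha subunit of the enzyme that attaches lipid anchors to Rab proteins, had an annotated in-frame site 84 nt downstream. It was used at 38.4, 37.3 and 31.9% in K700E cells in H3B-8800, and no read used it in the 3 K700E samples in DMSO (0 of 392 reads over the group, which allows a share of up to 0.765%). The WT samples had 42.2, 49.3 and 59.1% in H3B-8800, against 2.23, 2.23 and 2.18% in DMSO. It was called in both genotypes (adjusted p = 3.26e-08 in K700E cells and 2.28e-07 in WT cells, limma). The exon itself was skipped by 27.2% of the reads in WT cells in H3B-8800, against 0.507% in DMSO.

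TRMT6, a subunit of a tRNA methyltransferase, and CNTRL, a centrosome protein, changed by nearly the same amount in both genotypes. The TRMT6 site 121 nt downstream had 51.1% ± 4.59 in K700E cells in H3B-8800 and 4.73% ± 0.906 in DMSO, and 51.0% ± 1.12 in WT cells in H3B-8800 and 4.55% ± 0.620 in DMSO (SD, n = 3 each). The CNTRL site 116 nt downstream had 57.0% ± 2.91 in K700E cells in H3B-8800 and 14.6% ± 0.209 in DMSO, and 59.4% ± 2.92 in WT cells in H3B-8800 and 11.6% ± 1.62 in DMSO. Both extensions break the frame.

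The other large rises in WT cells were in ATXN2 (an RNA-binding protein), RANBP10 (a Ran-binding protein), POLI (a translesion DNA polymerase) and SYNCRIP (hnRNP Q). The ATXN2 site at 47 nt had 60.9% ± 14.6 in WT cells in H3B-8800 and 10.1% ± 2.19 in DMSO, and treated replicate 1, at 44.4%, was the lowest of the treated WT samples. The RANBP10 site at 143 nt had 50.7% ± 4.01 in H3B-8800 and 7.55% ± 2.49 in DMSO, and the POLI site at 52 nt 58.6% ± 0.655 in H3B-8800 and 17.1% ± 4.75 in DMSO. These 3 sites were called in K700E cells too, with differences of 32.8, 29.9 and 24.0 points. SYNCRIP differed in its reads: the site at 105 nt had 97.3% ± 0.406 in WT cells in H3B-8800 and 51.2% ± 4.76 in DMSO, while the reads of the event averaged 1396 in H3B-8800 and 103 in DMSO. Of the 4476 events, 26.3% had more reads in H3B-8800 than in DMSO in WT cells, so SYNCRIP belongs to the smaller part.

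**Figure D3:**
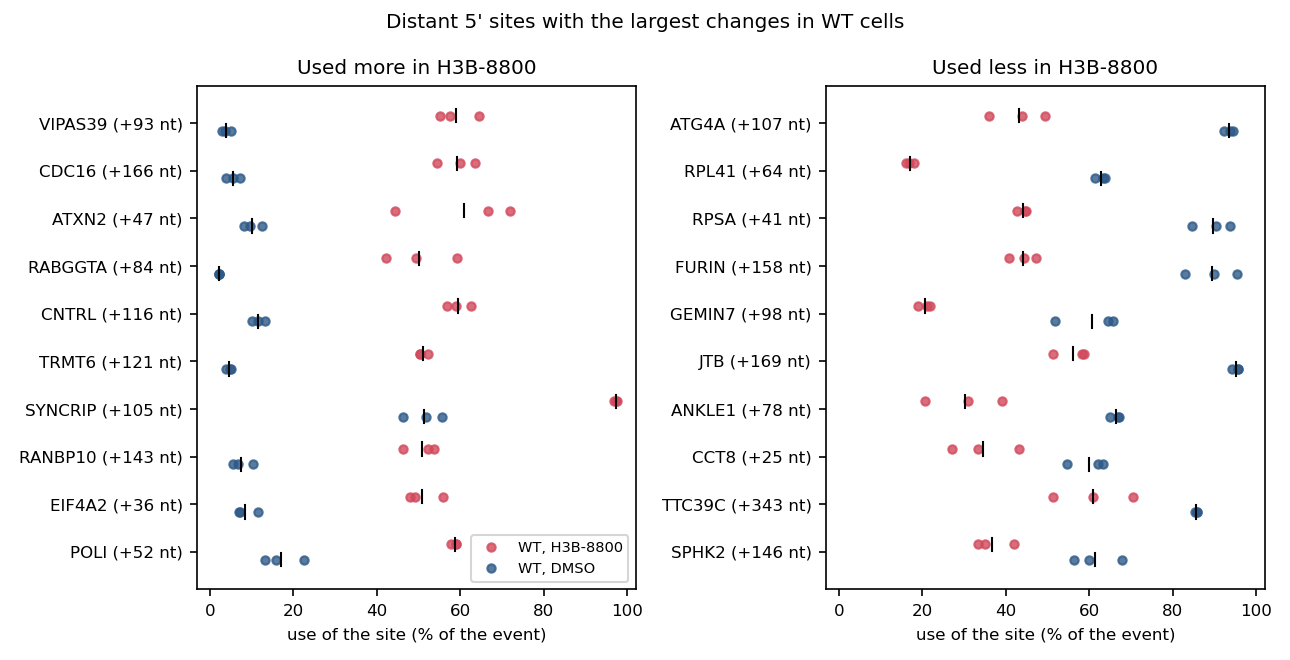
Use of the 10 distant 5' sites with the largest rises (left) and the 10 with the largest falls (right) in WT cells, 1 site per gene; the x axis is the percent of the event, points are the 3 samples in H3B-8800 (red, upper) and in DMSO (blue, lower), ticks are means, and the extension of the exon is in brackets. These sites were chosen for samples that do not overlap.

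In K700E cells 4 of the 10 largest rises were the same sites (CDC16, TRMT6, EIF4A2 and CNTRL). The others included STAT2, a transcription factor of interferon signalling, whose annotated in-frame site at 81 nt had 46.1, 60.2 and 63.7% in K700E cells in H3B-8800, against 9.92, 14.4 and 16.7% in DMSO (adjusted p = 8e-05, limma). They also included EEF2K, the kinase that inhibits elongation factor eEF2, with 56.5, 52.2 and 60.7% in H3B-8800, against 10.1, 11.02 and 22.8% in DMSO (adjusted p = 0.000197, limma). In both genes the treated samples lay above all DMSO samples. Measured retention of the following intron in K700E cells was 70.8% in H3B-8800 and 39.8% in DMSO in STAT2, and 73.9% in H3B-8800 and 10.6% in DMSO in EEF2K. The site's share there describes the transcripts that spliced the intron. AP3M2, a subunit of the AP-3 sorting adaptor, had 51.5% ± 0.827 in K700E cells in H3B-8800 and 12.4% ± 2.55 in DMSO. ZFAT, a zinc finger protein, had 79.0% ± 3.68 in H3B-8800 and 40.9% ± 2.67 in DMSO. The AP3M2 exon was skipped by 74.5% of reads in WT cells in H3B-8800, against 0.833% in DMSO.

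RPL17 and RPL21, which encode proteins of the large ribosomal subunit, completed the K700E rises. The RPL17 site at 120 nt had 89.2% ± 3.79 in K700E cells in H3B-8800 and 42.0% ± 3.94 in DMSO, with 346 reads on average in H3B-8800 and 122 in DMSO. The RPL21 site at 20 nt had 85.9% ± 2.86 in H3B-8800 and 42.6% ± 2.01 in DMSO, with 222 reads in H3B-8800 and 41.7 in DMSO. At both, most reads skipped the exon in either treatment (in WT cells 79.9% in H3B-8800 and 92.8% in DMSO in RPL17, 89.2% in H3B-8800 and 91.8% in DMSO in RPL21). Ribosomal protein genes have many near-identical pseudogene copies that could share these reads, so their values are uncertain.

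Falls were fewer, and most struck a site that was dominant in DMSO. Of the 75 sites that fell in K700E cells 58 held 50% or more in DMSO, and of the 91 in WT cells 65 did. The largest were shared: 8 of the 10 sites with the largest falls were the same in both genotypes. ATG4A, a protease that processes ATG8-type autophagy proteins, had 37.8, 43.8 and 47.01% at its annotated site 107 nt downstream (chromosome X, 108137991) in K700E cells in H3B-8800, against 92.5, 96.2 and 94.9% in DMSO. The WT samples had 49.4, 43.9 and 36.1% in H3B-8800, against 94.4, 93.7 and 92.4% in DMSO. All treated samples lay below all DMSO samples, with falls of -51.7 points in K700E cells (adjusted p = 7.6e-07, limma) and -50.4 points in WT cells (adjusted p = 1.2e-06).

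FURIN, a protease that activates precursor proteins, fell at its site 158 nt downstream to 46.0, 50.7 and 39.9% in K700E cells in H3B-8800, against 87.6, 83.6 and 80.3% in DMSO. In WT cells it fell to 47.1, 44.3 and 40.8% in H3B-8800, against 83.0, 89.8 and 95.3% in DMSO, and in neither genotype did the groups overlap (adjusted p = 0.000487 in K700E cells and 4.34e-05 in WT cells, limma). GEMIN7 belongs to the SMN complex, which builds the protein ring of the splicing particles, and its site is in a first exon. It had 20.8% ± 3.83 in K700E cells in H3B-8800 and 61% ± 1.67 in DMSO, and 20.6% ± 1.51 in WT cells in H3B-8800 and 60.7% ± 7.65 in DMSO. JTB, a membrane protein, had 61.8% ± 3.43 in K700E cells in H3B-8800 and 96.1% ± 0.643 in DMSO at its site 169 nt downstream, and 56.1% ± 4.28 in WT cells in H3B-8800 and 95.1% ± 0.849 in DMSO.

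RPL41 fell at the GC site shown above, to 17.9% ± 1.29 in K700E cells in H3B-8800, against 56.1% ± 4.65 in DMSO, and to 17.0% ± 0.931 in WT cells in H3B-8800, against 62.8% ± 1.24 in DMSO. The first site of the same event, with GT, had 78.0% in WT cells in H3B-8800 and 20.8% in DMSO. RPSA, a protein of the small ribosomal subunit, had falls at 2 events. Its site at 41 nt had 44.1% ± 1.18 in WT cells in H3B-8800 and 89.5% ± 4.69 in DMSO, and its site at 15 nt 9.82% ± 1.10 in H3B-8800 and 54.95% ± 5.35 in DMSO. The reads of the second event averaged 432 in H3B-8800 and 63.3 in DMSO. The remaining large falls were in CCT8 (a chaperonin subunit), TTC39C (a TPR protein), ANKLE1 (a nuclease) and SPHK2 (a sphingosine kinase) in WT cells, by -36.1 to -24.6 points. In K700E cells they were in CCT8, TTC39C, NOD1 (a sensor of bacterial cell walls) and DENR (a translation reinitiation factor), by -35.3 to -24.9 points. The NOD1 site was called in K700E cells alone (-34.8 points, adjusted p = 0.000582, and -13.7 points, adjusted p = 0.0968 in WT cells, limma), and the difference between the genotypes was not called (adjusted p = 0.675). The TTC39C exon was skipped by 80.7% of reads in WT cells in H3B-8800, against 13.6% in DMSO.

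The 2 genotypes responded alike in direction. Of the sites that rose, 216 did so in both, which is 78.8% of those in K700E cells and 62.1% of those in WT cells. Of the sites that fell, 48 did so in both, which is 64% of those in K700E cells and 52.7% of those in WT cells. All 274 sites that rose in K700E cells had a positive difference in WT cells, and 343 of the 348 that rose in WT cells had one in K700E cells. Over the 5557 sites the 2 differences had a Pearson r of 0.83, as a description across sites that share libraries and events. The genotypes have separate DMSO samples.

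**Figure D4:**
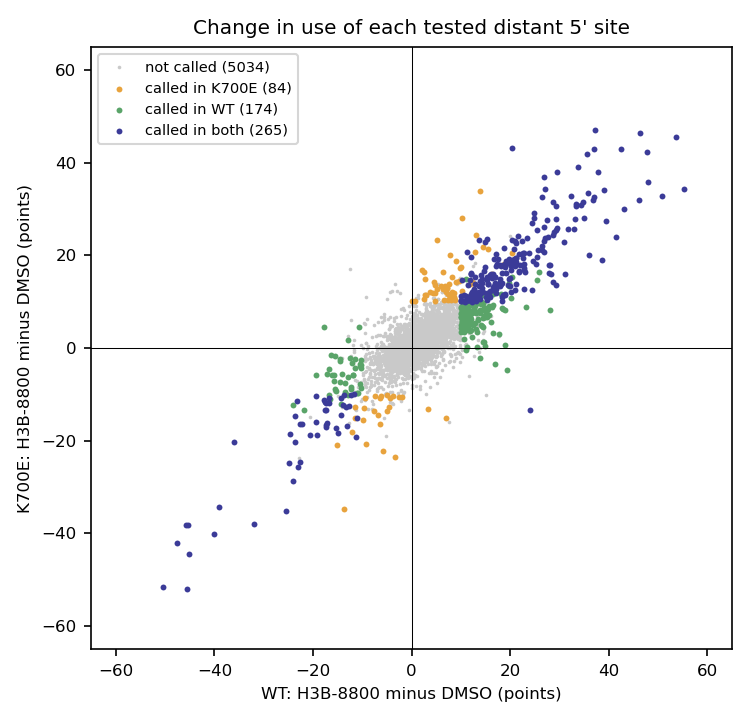
Change in use of each of the 5557 tested distant 5' sites (H3B-8800 minus DMSO, points), in WT cells on the x axis and in K700E cells on the y axis; colours give the genotype in which a site was called. The called sites lie along the rising diagonal, and 1 site called in both (NAA16) lies below 0 in K700E cells and above 0 in WT cells.

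The comparison of K700E with WT cells asked whether the SF3B1 mutation moved distant 5' sites on its own. In DMSO 3 of 5557 sites were called (0.0540%), against 0.349% of all tested events (0.228% higher and 0.121% lower in K700E), and in H3B-8800 1 was called (0.0180%), against 0.508% of all tested events (0.339% higher and 0.169% lower in K700E). At an unadjusted p under 0.05, 452 of the 5557 sites stood in DMSO, against 14742 of all 109076 tested events. In H3B-8800 the counts were 470 sites and 10482 events. Alternative 3' sites of any length had 274 of 10469 called in DMSO (2.62%) and 418 in H3B-8800 (3.99%). The far 3' sites among them had lower shares, with 82 of 5301 called in DMSO (1.55%) and 115 in H3B-8800 (2.17%). The sample means of distant sites differed by 0.0297 points in DMSO (K700E minus WT, exact permutation p = 0.90) and by -0.20 points in H3B-8800 (exact permutation p = 0.40).

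The 3 sites called in DMSO were in NAA16, SLC25A14 and DYNC2LI1. NAA16 encodes the auxiliary subunit of an N-terminal acetyltransferase, and its site at 100 nt had 61.1, 54.6 and 58.9% in K700E cells in DMSO, against 33.8, 32.2 and 38.4% in WT cells in DMSO (adjusted p = 0.0315, limma). SLC25A14, a mitochondrial carrier, had 6.32, 3.45 and 3.90% at its site at 92 nt in K700E cells, against 12, 18.5 and 20% in WT cells (adjusted p = 0.0282, limma). DYNC2LI1, a subunit of the dynein of cilia, had 14.7, 8.85 and 12.8% at its first-exon site at 401 nt in K700E cells, against 1.70, 2.16 and 0% in WT cells (adjusted p = 0.0125, limma). In all 3 genes the K700E and WT samples did not overlap, which was a condition for naming a site. None of the 3 calls was made in a fit of the 6 DMSO samples alone, and without WT DMSO replicate 2 only 1 was made. The NAA16 call was lost without any 1 of the DMSO libraries other than WT replicate 3, the SLC25A14 call without replicate 2 or 3 of either genotype, and the DYNC2LI1 call without K700E replicate 1.

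In H3B-8800 the called site was in TANGO6, named for Golgi organization and transport. Its site at 59 nt had 92.9, 85.7 and 88.0% in K700E cells, and in WT cells no read used another site (0 of 83 reads over the group, which allows other sites up to 3.61%; adjusted p = 0.0250, limma). The TANGO6 call rests on few reads, 24.7 per sample in K700E cells in H3B-8800 and 27.7 in WT cells, and was lost without any 1 of the H3B-8800 libraries other than K700E replicate 1. Without WT DMSO replicate 1, which is outside this comparison but shares its estimate of the spread, 3 sites were called. The DYNC2LI1 site kept its order in H3B-8800, with 10.3, 9.24 and 6.71% in K700E cells and 0 of 152 reads in WT cells, which allows up to 1.97% (adjusted p = 0.0239, limma), but its difference of 8.74 points was under 10.

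The difference of the H3B-8800 effect between genotypes was called at 0 of the 5557 sites in limma, against 0.00917% of all tested events (0.0055% higher and 0.00367% lower). An unadjusted p under 0.05 was found at 315 of the 5557 sites, against 7882 of all 109076 tested events. Under a test on the percent values 11 were called. NAA16 was the only site called in both genotypes in opposite directions: its use was lower in H3B-8800 in K700E cells (44.9% ± 1.06, against 58.2% ± 3.31 in DMSO) and higher in WT cells (58.9% ± 2.06, against 34.8% ± 3.22 in DMSO), and the difference of the effects had an adjusted p of 0.125. SLC25A14 was higher in H3B-8800 in both, with 36, 32.5 and 22.2% in K700E cells and 50, 48.1 and 50.9% in WT cells.

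**Figure D5:**
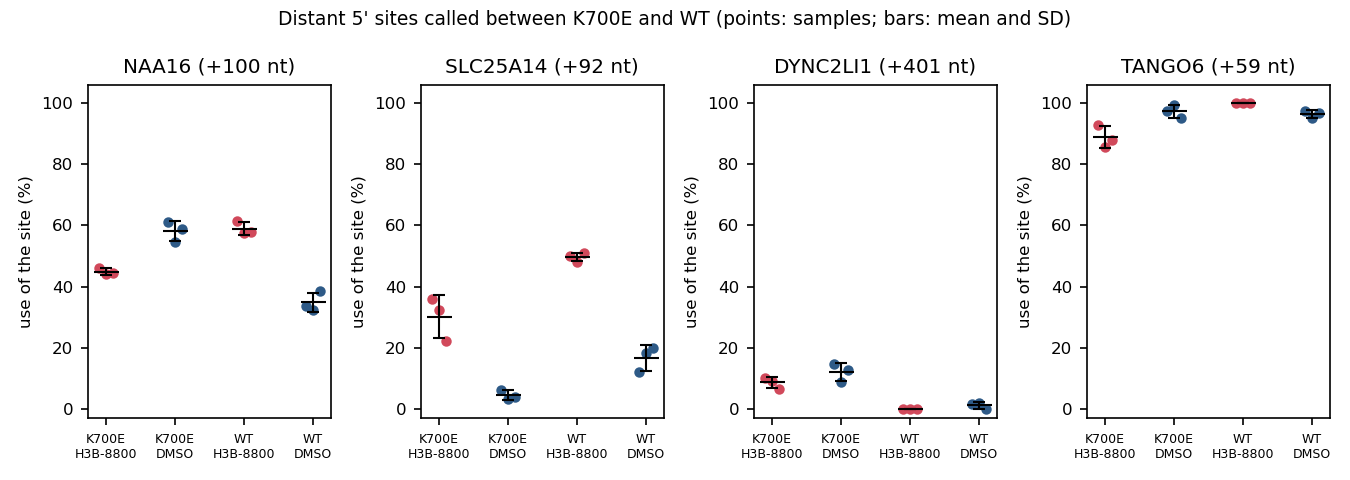
Use (percent of the event, y axis) of the 4 distant 5' sites called between K700E and WT cells, in the 4 groups; points are samples, bars the mean and SD of 3 samples, red H3B-8800 and blue DMSO. NAA16 moves in opposite directions in the 2 genotypes, and DYNC2LI1 is near 0 in WT cells in both treatments.

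Gene lists were read by their counts beside those of all tested distant sites, of which 6.28% were called in K700E cells and 7.90% in WT cells, with median differences in H3B-8800 of 0.71 and 0.85 points. The lists are small, so a few sites set each share. A list of U1 particle proteins, factors of 5' site choice and other splicing and cap-binding proteins had 15 tested sites in 9 of 24 genes. Of these sites 6.67% were called in K700E cells and 13.3% in WT cells. The called sites were in DHX38 and NCBP1, neither of which is a protein of the U1 particle. DHX38, a helicase of the second splicing step, fell at a site of 13 nt to 77.7% ± 0.875 in K700E cells in H3B-8800, against 90.3% ± 0.282 in DMSO, and to 78.5% ± 1.04 in WT cells in H3B-8800, against 91.8% ± 2.48 in DMSO. NCBP1, a subunit of the nuclear cap-binding complex, rose in WT cells to 24.9% ± 1.82 in H3B-8800, against 14.2% ± 0.812 in DMSO, a call lost without WT H3B-8800 replicate 2. The SF3B, SF3A and U2 list had 7 tested sites in 6 of 22 genes and none was called.

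SR proteins, hnRNPs and splicing kinases had 22 tested sites in 15 of 43 genes, of which 2 rose in K700E cells (9.09%) and 3 in WT cells (13.6%), and none fell. SRSF5, an SR protein, rose in every replicate at its annotated site 125 nt downstream, with 28.5, 33.2 and 29.6% in K700E cells in H3B-8800, against 15.2, 14.4 and 15.99% in DMSO, and 33.3, 29.8 and 29.1% in WT cells in H3B-8800, against 13.9, 16.1 and 16.4% in DMSO. It is among the most deeply read of these events, with 2529 reads on average in K700E cells in H3B-8800 and 4608 in DMSO, and 2195 in WT cells in H3B-8800 and 4674 in DMSO, and the groups did not overlap. HNRNPD (AUF1) rose at 98 nt in both genotypes, to 26.0% ± 6.22 in K700E cells in H3B-8800, against 5.57% ± 4.34 in DMSO, and to 27.0% ± 2.86 in WT cells in H3B-8800, against 3.15% ± 4.29 in DMSO. HNRNPH1 rose in WT cells at 42 nt to 14.2% ± 1.88 in H3B-8800, against 4.15% ± 0.496 in DMSO, and its difference in K700E cells, 8.91 points, was under 10. The HNRNPH1 call was lost without WT DMSO replicate 2 or WT H3B-8800 replicate 3.

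B cell receptor and NF-kappaB signalling had 39 tested sites in 21 of 46 genes, of which 1 rose in K700E cells (2.56%), 3 rose in WT cells (7.69%) and none fell. IKBKB, the kinase that marks the NF-kappaB inhibitor for removal, rose in K700E cells at 56 nt to 20.02% ± 4.34 in H3B-8800, against 8.39% ± 1.13 in DMSO, a call lost without K700E H3B-8800 replicate 2. TRAF2, an adaptor of TNF receptors, rose in WT cells at 156 nt to 14.6% ± 3.65 in H3B-8800, against 0.614% ± 0.730 in DMSO. PIK3AP1, a B cell adaptor of PI3 kinase, rose in WT cells at 93 nt to 13.4% ± 2.25 in H3B-8800, against 2.93% ± 0.807 in DMSO, while 59.9% of its reads skipped the exon in H3B-8800, against 1.41% in DMSO, and the call was lost without WT H3B-8800 replicate 3. TNFAIP3 (A20), an inhibitor of NF-kappaB, had 25.8% ± 6.75 in WT cells in H3B-8800 and 13.5% ± 2.50 in DMSO, and this call was lost without WT H3B-8800 replicate 2 or 3 or WT DMSO replicate 1 or 3.

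The DNA damage and cell cycle list had 48 tested sites in 30 of 63 genes, with 3 risen and 1 fallen in K700E cells (8.33% called) and 4 risen and 3 fallen in WT cells (14.6% called). Besides CDC16, DBF4, the activator of the replication kinase CDC7, rose at the annotated site 92 nt downstream whose bases are shown above. It had 16.4% ± 2.50 in K700E cells in H3B-8800 and 2.18% ± 1.13 in DMSO, and 18.2% ± 1.64 in WT cells in H3B-8800 and 0.333% ± 0.577 in DMSO. Skipping of the DBF4 exon was 79.7% in WT cells in H3B-8800 and 3.33% in DMSO. FANCA, of the Fanconi anemia repair complex, rose at 129 nt to 30.96% ± 15.3 in K700E cells in H3B-8800, against 7.67% ± 1.51 in DMSO. In WT cells FANCA rose at that site and at 71 nt of another event, to 22.8% ± 6.25 and 12.2% ± 8.48 in H3B-8800, against 9.25% ± 1.25 and 0.307% ± 0.291 in DMSO. The call at 71 nt was lost without WT H3B-8800 replicate 2 or 3. AURKB, a mitotic kinase, fell in both genotypes, to 76.05% ± 3.79 in K700E cells in H3B-8800, against 90.4% ± 1.18 in DMSO, and to 76.8% ± 1.98 in WT cells in H3B-8800, against 91.1% ± 0.990 in DMSO. MRE11 (a nuclease at DNA breaks) and XRCC4 (a factor of end joining) fell in WT cells by -15.7 and -17.2 points, and the XRCC4 call was lost without WT DMSO replicate 2 or WT H3B-8800 replicate 2 or 3. Retention of the following intron in WT cells was 80% in H3B-8800 and 20.2% in DMSO at FANCA (129 nt), and 72.5% and 13.6% at AURKB. At MRE11 it was lower in H3B-8800, with 21.8% against 30.7% in DMSO.

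Ribosomal proteins and translation factors were the list with the most tested sites, 86 in 39 of 80 genes. In K700E cells 5 sites rose and 6 fell, and in WT cells 8 rose and 7 fell, in 10 and 12 genes. This is 12.8% of the list's sites in K700E cells and 17.4% in WT cells, against 6.28% and 7.90% of all tested distant sites, and in RPL3 and RPL7A 2 sites of 1 event moved against each other. EIF4G3, a scaffold of translation initiation, rose at 41 nt to 35.5% ± 3.38 in K700E cells in H3B-8800, against 15.04% ± 2.46 in DMSO, and to 34.6% ± 4.55 in WT cells in H3B-8800, against 11.99% ± 3.03 in DMSO. RPS3 rose at 47 nt to 25.4% ± 1.05 in K700E cells in H3B-8800, where no read used it in the DMSO samples (33.7 reads per sample; a count of 0 over the group allows up to 2.97%), and RPL13A, at 39 nt, to 37.3% ± 6.71 in H3B-8800, against 9.69% ± 3.47 in DMSO. EEF1A1, the elongation factor, rose at 89 nt to 98.8% ± 0.732 in K700E cells in H3B-8800, against 84.9% ± 5.23 in DMSO, with 664 reads in H3B-8800 and 70.0 in DMSO. RPS12 fell at 136 nt to 79.4% ± 5.65 in K700E cells in H3B-8800, against 95.4% ± 1.32 in DMSO. Changes in RPL3, RPL7A, RPS14 and RPL10A were of -17.3 to 19.4 points in WT cells. Several of these ended when a WT library was left out: RPL3 (109 nt) without WT DMSO replicate 1 or 3 or WT H3B-8800 replicate 2 or 3, RPL3 (292 nt) without any WT library other than H3B-8800 replicate 1, RPL7A (15 nt) without any WT library other than DMSO replicate 3, RPS14 without WT DMSO replicate 3, and RPL10A without WT DMSO replicate 3 or WT H3B-8800 replicate 2. In K700E cells the RPL10A call was lost without DMSO replicate 3 or H3B-8800 replicate 2. With the culture code as a block, the RPL3 call at 109 nt was lost too.

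Nonsense-mediated decay and RNA export genes had 27 tested sites in 16 of 29 genes. In WT cells 2 rose (7.41%) and none fell, and in K700E cells none was called. SMG1, the kinase of the decay pathway, rose in WT cells at 77 nt to 13.7% ± 2.54 in H3B-8800, against 1.95% ± 1.20 in DMSO, and its difference in K700E cells, 7.96 points, was under 10. Apoptosis regulators had 12 tested sites in 10 of 37 genes and B cell markers 10 tested sites in 7 of 12 genes, and none was called in either genotype. The T and NK cell and myeloid lists had no tested site.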

How the data were processed

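The authors deposited 1 table of splicing events in the layout of vast-tools, with the use of each event in percent per sample and, beside it, read scores with the inclusion and exclusion reads, per the file headers. Percent values are ratios within a sample and were not normalized between samples. The submitters' processing notes name cutadapt 2.4 and hg38, and the aligner is not given in the sources used here. In 4598029 values with 10 or more reads, 0 differed by more than 1 point from the ratio of the reads. Another 72 columns hold the 36 single sequencing runs and were not used. The libraries had no molecular identifiers, so intervals and the limit of 3 reads cover counting error only.

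Events needed 20 reads in every sample and a mean use of 1 to 99%. Introns with unbalanced junctions and the first site of each event were left out of the test, which left 109076 events. The value log2((inclusion + 0.5)/(exclusion + 0.5)) was fitted with a trend on mean reads by limma 3.58.1 in R 4.3.3, the 12 samples forming 4 groups, and adjusted p-values are Benjamini-Hochberg over all events. Percent differences are differences of group means. Exact tests over samples used sign flips of 6 pairs or 3 against 3 permutations, in Python 3.11.15. H3B-8800 and DMSO samples of a replicate share a culture code in the labels, so they are paired within a genotype, and their deviations over the distant sites correlated by -0.00639 to 0.0914. Where nothing shows separate cultures, p-values measure the spread between these samples.

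Named sites were called, 1 per gene, with samples that do not overlap: the 10 largest rises and the 10 largest falls in each genotype, up to 10 in each comparison of genotypes, and every called site of a listed gene, of which 1 is not reported here. A site of WT and K700E counts under both. The sites, lists and tests were chosen with earlier results of these data known. Following introns were matched by their end and 1 of the event's sites, with 20 reads in all samples and no filter on balance. Exon ends and bases came from GENCODE 29 on GRCh38, the build named hg38.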

Additional observations from a re-analysis of the deposited data

Results flagged for a closer look

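At 2 of the sites called between the genotypes, every WT culture moved one way in H3B-8800 and every K700E culture the other way. The NAA16 site was called for its genotype difference in DMSO and the TANGO6 site for that in H3B-8800. The same samples enter the effects given here, so the choice of sites itself favours opposite directions. The H3B-8800 effect on the NAA16 site at 100 nt, K700E minus WT, was -37.4 points, and the test of the difference across all events did not call it (adjusted p = 0.125, limma). In its exon, 40.8% of the reads in WT cells in H3B-8800 skipped it, against 2.22% in DMSO. The same difference at the TANGO6 site at 59 nt was -12 points (adjusted p = 0.25, limma). In WT cells this site had 96.4% in DMSO and 100% in H3B-8800. There 0 of 83 reads used another site, which allows other sites up to 3.61%, so these reads cannot settle a rise in WT cells. TANGO6 had 24.7 reads per sample in K700E cells in H3B-8800, against 122 in DMSO, and 27.7 in WT cells in H3B-8800, against 158 in DMSO, and the part of this depth in the difference was not tested.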

How the results depend on the processing

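With 20 points as the limit, 83 sites rose and 21 fell in K700E cells and 109 rose and 24 fell in WT cells, 1 was called between genotypes in DMSO and 0 in H3B-8800. With 50 reads in every sample, falls numbered 48 in K700E cells and 57 in WT cells. With distance counted from whichever site led in WT DMSO samples, 18 fell in K700E cells and 25 in WT cells, by construction, since the most used site is then no member; 235 rose in K700E cells and 301 in WT cells. Between genotypes in H3B-8800, 0 sites were called with 1 read added, with read weights, with 50 reads and with that distance. In DMSO 0 were called in the fit of 6 samples. The test on percent values called 8 sites in DMSO, 35 in H3B-8800 and 11 for the difference of the effect; the cause was not tested. With the replicate block, 263 rose and 73 fell in K700E cells, 336 rose and 87 fell in WT cells, and 0 were called for the difference of the effect; of the named calls the block ended 1, RPL3 at 109 nt. Leaving out 1 library of the comparison gave 245 to 266 rises and 63 to 70 falls in K700E cells, 307 to 361 rises and 76 to 90 falls in WT cells, 1 to 3 calls in DMSO, 0 to 1 in H3B-8800 (0 without K700E replicate 2 or 3 or WT replicate 2) and 0 for the difference of the effect. Leaving out 1 library outside the comparison, which shares the spread estimate, gave 266 to 273 rises and 71 to 74 falls in K700E cells, 345 to 349 rises and 90 to 93 falls in WT cells, 2 to 3 calls in DMSO and 1 to 3 in H3B-8800 (3 without WT DMSO replicate 1). The mean difference of use was 1.54 to 1.62 points without 1 pair, and that of distant minus close sites 1.58 to 1.70 points, where 5 pairs cannot pass 0.05. Of 87 named calls, 51 held under every alternative run that tested the site, 35 were lost at 20 points, and 0 changed direction. Sites with under 50 reads in a sample, such as those of VIPAS39, RABGGTA and POLI, were not tested in the run with 50 reads, so their calls did not face that limit. Sites with few reads, such as TANGO6 and POLI, are the least precise.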
